A study of Arabidopsis thaliana with 6 samples.

Results

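The L-type lectin receptor kinases (LecRK) are plant membrane proteins that carry a legume-lectin-like domain outside the cell, a single membrane span and a kinase domain inside it. The 44 Arabidopsis thaliana genes described here were chosen by locus identifier as members of this family, among 24487 genes in the deposited expression tables, and all 44 are listed there. Each of the 44 carries its LecRK clade name (I to IX, with S for the genes that stand alone) in the reference annotation. Of these genes, 34 averaged 10 or more normalized counts across all 6 libraries and were tested, and 10 were not.

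Some family members bind small molecules that reach the space outside the cell when plant cells are damaged, such as ATP and NAD. Others take part in resistance to bacteria and oomycetes, in the closing of stomata, in the response to abscisic acid during germination, or in pollen development. Many stand in tandem clusters of related copies. As receptors they work beside co-receptors such as BAK1, cytoplasmic kinases and a wave of defence transcription factors. No sequences are shown, because the genome at hand is of another build name than the authors' and the members' proteins were not analysed here.

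RNA was sequenced from whole seedlings, 4 days old, that grew at 22 °C in continuous darkness on agar medium. The groups were 3 libraries labelled atino80-6 mutant and 3 labelled wild-type; the labels give no other allele, agent or accession for either group, and they do not say what kind of allele atino80-6 is. The line is named after INO80, the ATPase of a chromatin remodelling complex. The labels do not state whether the replicates were separate cultures, so p-values measure the spread between these samples only.

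The libraries held between 18446028 and 24156610 reads. INO80 (AT3G57300), the check of the labels, had 28174, 33013 and 33322 normalized counts in libraries labelled atino80-6, against 5586, 6173 and 5758 in those labelled wild type. Its transcript was 5.40-fold higher (log2 change 2.43 ± 0.10, limma adjusted p = 2.8e-06). A line that had lost this transcript would be lower. Because the kind of allele is not given, this level cannot decide whether the labels are right. Every direction given here rests on the labels as deposited. Wild type 1 and atino80-6 3 differed most from their own replicates: a chi-square per degree of freedom on reads was 20.4 to 23.1 for pairs that included either, against 8.11 between atino80-6 1 and 2 and 5.82 between wild type 2 and 3. Whole-seedling libraries give summed transcript levels, in which fewer cells of a type and less RNA per cell cannot be told apart.

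The question was which LecRK transcripts differ between dark-grown seedlings of the line labelled atino80-6 and wild type. In limma, with p-values adjusted by Benjamini-Hochberg across the 20222 genes tested, 19 of the 34 tested members fell in the libraries labelled atino80-6, 2 rose and 13 did not pass an adjusted p of 0.05. Among all tested genes 16.6% fell and 17.7% rose. The median log2 change of the 34 members was -0.63, against 0.00 over all tested genes. The members were chosen with earlier results of these data known, so contrasts of the family with all genes are descriptive only. A fall of at least 2-fold that passed the test was found in 14 members, and in 5.31% of all tested genes. All 3 libraries labelled atino80-6 lay below all 3 of wild type for 19 members, a pattern that 24.2% of tested genes showed, and above them for 3, a pattern that 24.1% showed. Of the 34, the authors' deposited table gave 19 as lower and 1 as higher, beside 16.5% and 17.4% of the tested genes; the 19 and the 1 were also called in the same direction in limma. Without wild type 1 and atino80-6 3, limma called 20 members lower and 2 higher.

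**Figure D1:**
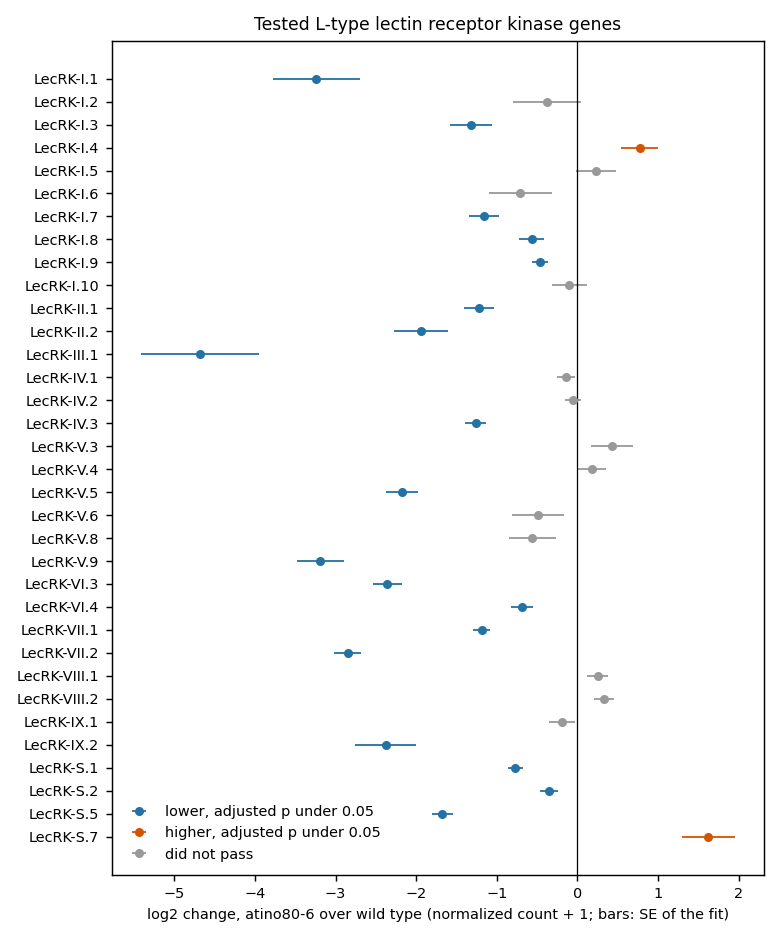
Log2 change (libraries labelled atino80-6 over wild type, from normalized counts plus 1) of each of the 34 tested members, ordered by clade, with the standard error of the fit as bars (n = 3 per group); colour gives the limma call. The 19 members that fell run from -4.68 for LecRK-III.1 to -0.35 for LecRK-S.2, and the 2 that rose are LecRK-I.4 and LecRK-S.7.

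The filter on the mean is the measured value that decided which members were tested. The members just inside it were LecRK-I.2 and LecRK-V.6, each with a mean of 19.3 normalized counts, and LecRK-I.1 with 21.4. Just outside it were LecRK-III.2 with 7.11, LecRK-IV.4 with 6.22 and LecRK-VI.1 with 5.79. In 2 tested members, LecRK-I.1 and LecRK-II.2, the mean of the libraries labelled atino80-6 was itself under 10, so they passed the filter through their wild type level.

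Levels per length (FPKM, scaled between libraries by the authors) show which members carried most of the family's transcript. Summed over the 44 members, FPKM was 156, 155 and 176 in the libraries labelled atino80-6 and 262, 277 and 259 in those labelled wild type. The 2 groups of sums did not overlap; no test is given for a sum over chosen members. LecRK-IV.1 (AT2G37710) was the highest member per length in each group, at 25.1 ± 3.01 FPKM in the libraries labelled atino80-6 and 27.5 ± 2.61 in wild type (SD, n = 3 each). LecRK-S.2, LecRK-VII.1 and LecRK-I.9 followed in wild type at 27.4 ± 3.98, 27.0 ± 1.48 and 22.9 ± 2.45 FPKM (SD, n = 3), and in wild type LecRK-IV.1, LecRK-S.2 and LecRK-VII.1 lay within their spread of each other. LecRK-VII.2 ranked 23 of 44 in the libraries labelled atino80-6 and 8 in wild type, the largest drop in rank among the 10 members highest in wild type. LecRK-IV.2 ranked 7 in the libraries labelled atino80-6 and 12 in wild type.

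**Figure D2:**
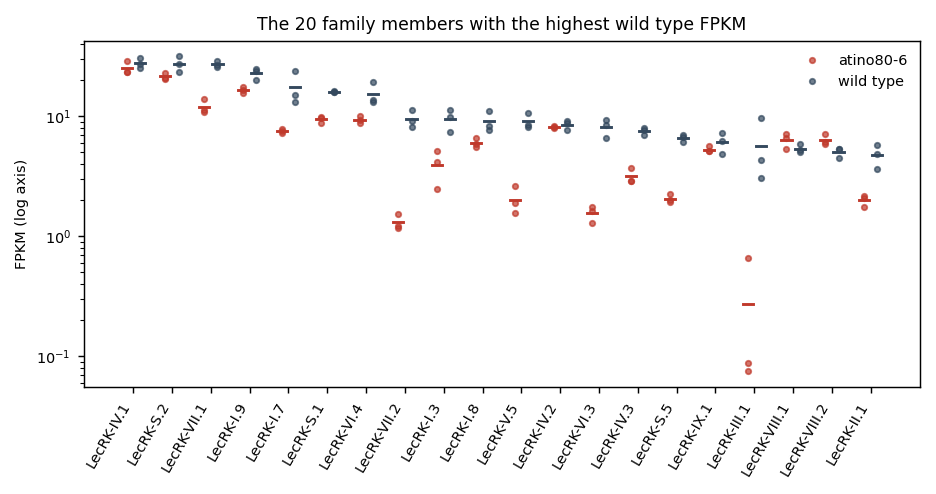
FPKM on a log axis for the 20 members highest in wild type, with each library as a point and the group mean as a bar; libraries labelled atino80-6 stand left of wild type. LecRK-IV.1 and LecRK-IV.2 overlap between the groups, while LecRK-VII.2, LecRK-V.5, LecRK-VI.3 and LecRK-S.5 do not.

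Clade I includes receptors for extracellular ATP and NAD, and its genes stand in 2 tandem clusters, on chromosomes 3 and 5. Of its 10 tested members 5 fell, 1 rose and 4 did not pass. LecRK-I.9 (AT5G60300, DORN1), the receptor for extracellular ATP, had 855, 913 and 958 normalized counts in libraries labelled atino80-6 and 1108, 1297 and 1369 in wild type. The groups did not overlap, and the fall was 1.38-fold, with a log2 change of -0.46 ± 0.10 (limma adjusted p = 0.0064). LecRK-I.8 (AT5G60280), which binds extracellular NAD and takes part in the response to insect eggs, had 276, 233 and 246 normalized counts in libraries labelled atino80-6 and 465, 349.5 and 321 in wild type. Its log2 change was -0.57 ± 0.15 (adjusted p = 0.018). The call of LecRK-I.8 was lost without atino80-6 2 (adjusted p = 0.071, with a range of 0.010 to 0.071 over its 18 alternative fits).

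LecRK-I.7 (AT5G60270), the next gene upstream in the same cluster, had 364, 354 and 378 normalized counts in libraries labelled atino80-6 and 1168, 643 and 731 in wild type. It fell 2.32-fold (log2 change -1.16 ± 0.19, adjusted p = 0.0021), and wild type 1 was its highest library. Without wild type 1 the fall of LecRK-I.7 was 1.88-fold. LecRK-I.10 (AT5G60310), farther along the cluster, averaged 79.4 ± 12.8 and 86.0 ± 18.1 normalized counts in libraries labelled atino80-6 and wild type (SD, n = 3 each), and the groups overlapped. Its log2 change of -0.10 did not pass (adjusted p = 0.75) and changed sign without wild type 3, without atino80-6 3, and without wild type 1 and atino80-6 3 together. LecRK-I.11 (AT5G60320) had 7 reads in all in the libraries labelled atino80-6 and 6 in wild type.

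In the other clade I cluster LecRK-I.1 (AT3G45330), which has been linked to the response to insect eggs, had 1.17, 3.98 and 4.55 normalized counts in libraries labelled atino80-6 and 23.6, 64.4 and 30.6 in wild type. Every library labelled atino80-6 was thus below every wild type library, and the fall was 12.2-fold (log2 change -3.24 ± 0.54, adjusted p = 0.0020). The libraries labelled atino80-6 held 9 reads of LecRK-I.1 in all. Its fall was between 8.38-fold and 15.4-fold when single libraries were left out. LecRK-I.3 (AT3G45410) had 186, 111 and 229 normalized counts in libraries labelled atino80-6 and 332, 509 and 442 in wild type, a fall of 2.44-fold (log2 change -1.32 ± 0.26, adjusted p = 0.0051). Its direct neighbour LecRK-I.4 (AT3G45420) went the other way. LecRK-I.4 had 63.1, 66.7 and 66.0 normalized counts in libraries labelled atino80-6 and 49.9, 35.1 and 30.6 in wild type, a rise of 1.69-fold (log2 change 0.77 ± 0.23, adjusted p = 0.032). This call was lost when any single library except wild type 1 was left out (adjusted p at most 0.11, without wild type 3), and it did not pass in the authors' deposited table (adjusted p = 0.055). LecRK-I.5 (AT3G45430), a further receptor for extracellular ATP, averaged 54.6 ± 13.2 and 45.9 ± 7.61 normalized counts in libraries labelled atino80-6 and wild type (SD, n = 3 each) and did not pass (log2 change 0.23, adjusted p = 0.51). LecRK-I.2 and LecRK-I.6 had log2 changes of -0.38 and -0.71 that did not pass (adjusted p = 0.51 and 0.20).

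Clades II and III, of which no function is given here, contributed the member with the largest fall. LecRK-III.1 (AT2G29220) had 3.5, 2.99 and 26.2 normalized counts in libraries labelled atino80-6 and 122, 385 and 171 in wild type. The groups did not overlap and the fall was 20.7-fold (log2 change -4.68 ± 0.73, adjusted p = 0.0014). Atino80-6 3 was its highest library of that group, and leaving it out gave a fall of 69.6-fold and a log2 change of -5.57. That fold rests on 3.5 and 2.99 normalized counts, the level of 3 reads in atino80-6 1 and in atino80-6 2, so its size is uncertain. Wild type 2 was the highest library of wild type, and leaving it out gave a fall of 13.5-fold and a log2 change of -4.21. LecRK-II.1 (AT5G59260) had 88.8, 75.7 and 92.2 normalized counts in libraries labelled atino80-6 and 156, 248 and 208 in wild type, and fell 2.38-fold (log2 change -1.22 ± 0.19, adjusted p = 0.0015). Its neighbour LecRK-II.2 (AT5G59270) had 8.18, 12.9 and 7.97 normalized counts in libraries labelled atino80-6 and 43.7, 30.3 and 45.5 in wild type, and fell 4.11-fold (log2 change -1.94 ± 0.33, adjusted p = 0.0025). None of these 3 genes overlapped between the groups. LecRK-III.2 (AT2G29250) was not tested. It had 1 read in the libraries labelled atino80-6 and 45 in wild type, a ratio of 37.2 in favour of wild type (exact 95% interval 6.35 to 1503, counting error only). In the authors' deposited table LecRK-III.2 was lower (log2 change -5.13, adjusted p = 0.0016).

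Clade IV contains LecRK-IV.2 (AT3G53810), required for normal pollen, and LecRK-IV.3 (AT4G02410, LPK1), which has been linked to resistance to a fungus. LecRK-IV.3 was the tested member of the clade that fell. It had 139, 139 and 179 normalized counts in libraries labelled atino80-6 and 337, 384 and 370.0 in wild type, a fall of 2.39-fold (log2 change -1.26 ± 0.13, adjusted p = 0.00020). LecRK-IV.1 averaged 1219 ± 146 and 1337 ± 126 normalized counts in libraries labelled atino80-6 and wild type, and LecRK-IV.2 averaged 386 ± 7.72 and 403 ± 35.4 (SD, n = 3 each). Neither passed (log2 changes -0.14 and -0.06, adjusted p = 0.36 and 0.68), although LecRK-IV.1 passed without wild type 1 and atino80-6 3 (-0.30, adjusted p = 0.020). LecRK-IV.4 (AT4G02420), next to LecRK-IV.3, was not tested; it had 29 reads in the libraries labelled atino80-6 and 7 in wild type, a ratio of 5.01 (exact 95% interval 2.15 to 13.5, counting error only), and was higher in the authors' deposited table (adjusted p = 0.048).

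Clade V includes LecRK-V.5 (AT3G59700), which limits the closing of stomata in immunity. LecRK-V.5 had 85.3, 70.7 and 118 normalized counts in libraries labelled atino80-6 and 479, 384 and 369 in wild type. It fell 4.49-fold without overlap (log2 change -2.18 ± 0.20, adjusted p = 8.6e-05). LecRK-V.9 (AT4G29050) had 8.18, 8.96 and 14.8 normalized counts in libraries labelled atino80-6 and 115, 86.9 and 106 in wild type. It fell 9.65-fold (log2 change -3.19 ± 0.29, adjusted p = 8.1e-05). The other 4 tested members of the clade did not pass: LecRK-V.6 and LecRK-V.8 had log2 changes of -0.49 and -0.56, and LecRK-V.3 and LecRK-V.4 of 0.43 and 0.18 (adjusted p between 0.17 and 0.43). LecRK-V.1, LecRK-V.2 and LecRK-V.7 were not tested. LecRK-V.2 had 18 reads in the libraries labelled atino80-6 and 4 in wild type (ratio 5.44, exact 95% interval 1.79 to 22.1, counting error only). The groups overlapped for LecRK-V.2, and it did not pass in the authors' deposited table (adjusted p = 0.17). LecRK-V.7 had 11 reads in the libraries labelled atino80-6 and 24 in wild type, and LecRK-V.1 had 2 and 4. The exact 95% intervals for LecRK-V.7 and LecRK-V.1 included equal levels.

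Clade VI holds the LECRKA4 genes, which dampen the response to abscisic acid in germinating seeds. LecRK-VI.3 (AT5G01550) had 71.3, 56.8 and 77.4 normalized counts in libraries labelled atino80-6 and 410.3, 373 and 287 in wild type. It fell 5.21-fold (log2 change -2.36 ± 0.18, adjusted p = 3.4e-05). LecRK-VI.4 (AT5G01560) had 447, 467 and 509 normalized counts in libraries labelled atino80-6 and 971, 669.7 and 688 in wild type. It fell 1.64-fold (log2 change -0.69 ± 0.14, adjusted p = 0.0064), and wild type 1 was its highest library. Without wild type 1 the fall of LecRK-VI.4 was 1.43-fold. LecRK-VI.2 (AT5G01540), a receptor for extracellular NAD that acts with BAK1, stands beside them in the same cluster but had 1 read in the libraries labelled atino80-6 and 2 in wild type, so a difference was not detectable at this depth. LecRK-VI.1 (AT3G08870) had 17 reads in each group.

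Both genes of clade VII fell. LecRK-VII.2 (AT4G28350) had 52.6, 50.8 and 66.0 normalized counts in libraries labelled atino80-6 and 353, 397 and 492 in wild type. This was a fall of 7.34-fold (log2 change -2.85 ± 0.17) and the smallest adjusted p in the family (1.1e-05 in limma). LecRK-VII.1 (AT4G04960), which has been linked to stomatal responses to bacteria, had 534, 551 and 687 normalized counts in libraries labelled atino80-6 and 1322, 1417 and 1273 in wild type. It fell 2.26-fold (log2 change -1.19 ± 0.11, adjusted p = 8.6e-05). Clade VIII gave no call: LecRK-VIII.1 averaged 318 ± 46.7 and 266 ± 21.3 normalized counts in libraries labelled atino80-6 and wild type, and LecRK-VIII.2 averaged 327 ± 35.6 and 259.6 ± 23.4 (SD, n = 3 each). The log2 changes of LecRK-VIII.1 and LecRK-VIII.2 were 0.25 and 0.33 (adjusted p = 0.19 and 0.068), and LecRK-VIII.2 did not overlap between the groups.

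Clade IX, whose members take part in resistance to Phytophthora, was split. LecRK-IX.2 (AT5G65600) had 11.7, 15.9 and 35.3 normalized counts in libraries labelled atino80-6 and 95.4, 88.8 and 125 in wild type. It fell 4.92-fold (log2 change -2.38 ± 0.38, adjusted p = 0.0017), and atino80-6 3 was the highest library of its group. Without that library the fall was 7.47-fold, with a log2 change of -2.81. LecRK-IX.1 (AT5G10530) averaged 218 ± 13.2 and 253 ± 50.9 normalized counts in libraries labelled atino80-6 and wild type (SD, n = 3 each) and did not pass (log2 change -0.19, adjusted p = 0.38).

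Of the genes that stand outside the numbered clades, 3 fell and 1 rose among 4 tested. LecRK-S.5 (AT5G06740) had 82.9, 79.7 and 93.3 normalized counts in libraries labelled atino80-6 and 254, 280.2 and 289 in wild type, a fall of 3.22-fold (log2 change -1.68 ± 0.13, adjusted p = 3.9e-05). LecRK-S.1 (AT1G15530) had 366, 399 and 411 normalized counts in libraries labelled atino80-6 and 662, 666 and 679.6 in wild type, a fall of 1.71-fold (log2 change -0.77 ± 0.09, adjusted p = 0.00023). Replicates of LecRK-S.1 and LecRK-S.5 lay close together within each group. LecRK-S.2 (AT2G32800) had 1214, 1177 and 1328 normalized counts in libraries labelled atino80-6 and 1356, 1817 and 1579.6 in wild type, a fall of 1.28-fold at the edge of the threshold (log2 change -0.35 ± 0.11, adjusted p = 0.041). Leaving out any single library other than wild type 1 or atino80-6 3 ended the call of LecRK-S.2 (adjusted p at most 0.14).

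LecRK-S.7 (AT5G55830) was the member with the larger of the 2 rises. It had 54.9, 87.7 and 77.4 normalized counts in libraries labelled atino80-6 and 18.4, 36.1 and 17.5 in wild type. The groups did not overlap, and the rise was 3.06-fold (log2 change 1.62 ± 0.33, adjusted p = 0.0057); the call held in each of its 17 alternative fits. LecRK-S.3 and LecRK-S.4 were not tested, with 8 and 5 reads in the libraries labelled atino80-6 and 11 and 9 in wild type. LecRK-S.6 (AT5G42120), a family gene outside the 44 and also under the filter, had 17.5, 9.96 and 11.4 normalized counts in libraries labelled atino80-6 and 7.0, 0 and 3.5 in wild type.

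**Figure D3:**
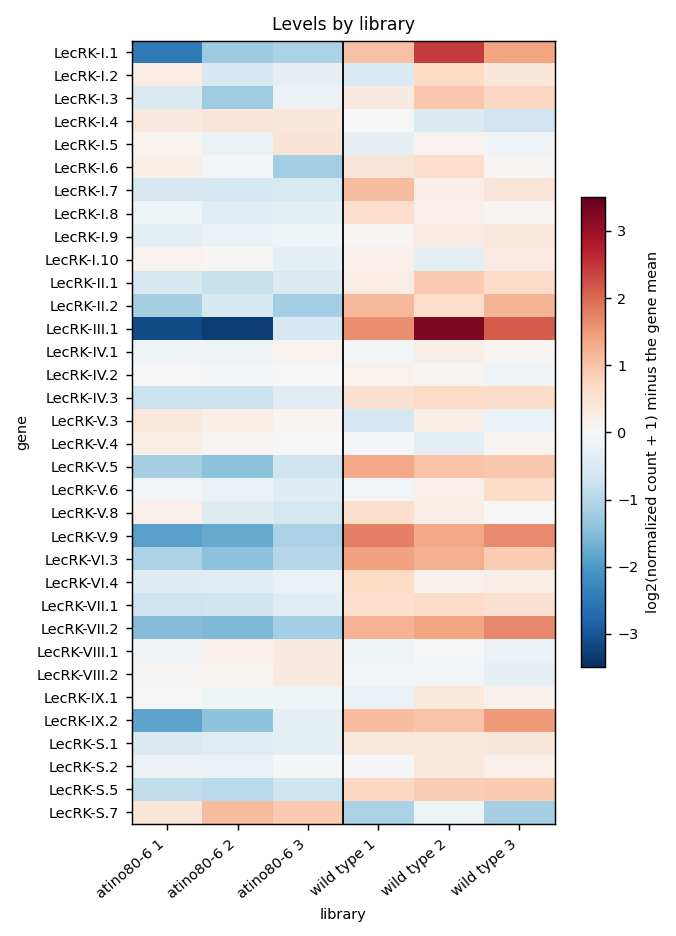
Log2(normalized count + 1) minus the gene's mean over the 6 libraries for each of the 34 tested members (rows, by clade) in each library (columns, libraries labelled atino80-6 left of the line and wild type right of it). Blue is below and red above the gene's mean, and colours are pale where a value lies close to it. The 19 members that fell lie below their mean in the 3 left columns. LecRK-S.7 shows the opposite pattern, as does LecRK-I.4 except in wild type 1, which lies at about its mean.

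Position was not used to choose the members. With members at most 10 annotated genes apart counted as a cluster, 28 of the 44 stood in 9 clusters and 16 stood alone. In clusters 12 of 21 tested members fell and 1 rose, with a median log2 change of -0.69, and alone 7 of 13 fell and 1 rose, with a median of -0.35. Among all tested genes 16.6% fell and 17.7% rose. Of 15 tested genes of other families within or beside these clusters 1 fell, 6 rose and 8 did not pass. The gene that fell was IQD14, beside LecRK-V.3 (log2 change -0.67 ± 0.10, adjusted p = 0.00096). LHCB4.1, a light-harvesting gene that borders the clade VI cluster, averaged 14915 and 6889 normalized counts in libraries labelled atino80-6 and wild type (log2 change 1.12 ± 0.11, adjusted p = 0.00011). AT5G59250, a transporter-family gene next to LecRK-II.1, averaged 525 and 144 (log2 change 1.86 ± 0.11, adjusted p = 9.9e-06). AT3G59710, which stands between LecRK-V.5 and LecRK-V.6, rose as well (log2 change 0.66 ± 0.21, adjusted p = 0.037), and AT4G02405, next to LecRK-IV.3, rose by 0.52 ± 0.13 (adjusted p = 0.014). On the other side of the clade VI cluster AT5G01570 rose by 0.87 ± 0.23 (adjusted p = 0.018). SSI2, a fatty acid desaturase gene beside LecRK-V.4, which did not pass, rose by 0.57 ± 0.08 (adjusted p = 0.00078). These neighbours, all that passed, were named after their values were seen, and the sources used here do not state whether counting used strand. Whether reads that match more than 1 copy were counted is not given in the sources used here, so the split of reads between close copies in a cluster is uncertain.

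**Figure D4:**
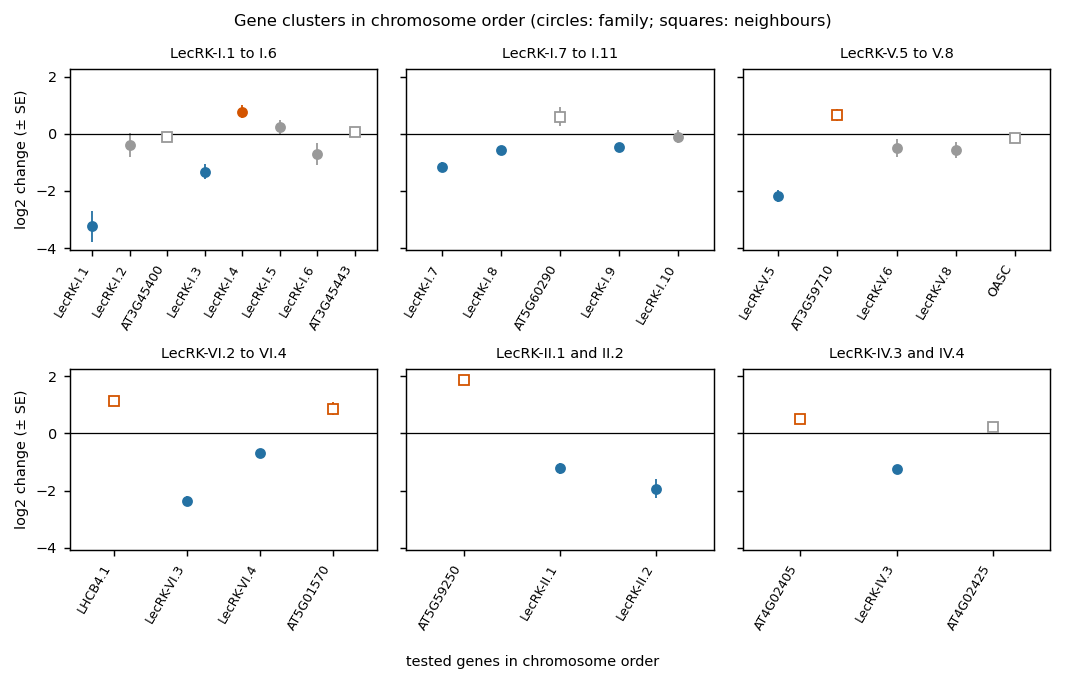
Log2 change with its standard error (n = 3 per group) for the tested genes of 6 family clusters in chromosome order; circles are family members, open squares are neighbouring genes, and colour gives the limma call (blue lower, orange higher, grey did not pass). LecRK-I.3 and LecRK-I.4 lie on opposite sides of 0, and LHCB4.1 and AT5G59250 rise beside members that fell.

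Close relatives were also set against each other within a library. The FPKM ratio of the 2 genes of a pair, taken within each library, was compared between the groups for 13 pairs chosen after the values were seen. For LecRK-I.3 over LecRK-I.4 the ratio was 2.79, 1.57 and 3.28 in the libraries labelled atino80-6 and 6.30, 13.7 and 13.7 in wild type. For LecRK-VII.2 over LecRK-VII.1 it was 0.112, 0.105 and 0.109 against 0.305, 0.320 and 0.441 in wild type, and for LecRK-VI.3 over LecRK-VI.4 it was 0.184, 0.141 and 0.176 against 0.489, 0.645 and 0.483. In these pairs the ratio was lower in every library labelled atino80-6 than in any wild type library. For LecRK-IX.2 over LecRK-IX.1 the ratio was 0.0482, 0.0728 and 0.162 in the libraries labelled atino80-6 and 0.461, 0.285 and 0.466 in wild type. For LecRK-V.5 over LecRK-V.6 it was 3.57, 3.26 and 6.36 against 20.1, 13.1 and 9.10 in wild type. The groups did not overlap for 6 of the 13 pairs, the sixth being LecRK-I.7 over LecRK-I.8. That share is near the background: for the levels of single genes, 24.2% of those tested lay wholly below wild type and 24.1% wholly above it. An exact two-sided permutation test of 3 against 3 libraries cannot go below p = 0.10, which these 6 pairs reached (Benjamini-Hochberg adjusted p = 0.22 over the 13 pairs). LecRK-VIII.2 over LecRK-VIII.1 was 1.10, 0.918 and 0.998 in the libraries labelled atino80-6 and 1.03, 0.912 and 0.906 in wild type, and overlapped.

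Genes that work with such receptors were described from lists written with earlier results of these data known. Beside the limma calls of each list, here and below, stand the 16.6% of all tested genes that fell and the 17.7% that rose. Of 21 tested surface immune receptors and co-receptors 14 fell and 0 rose, with a median log2 change of -0.44; at an unadjusted p under 0.05, 16 were lower and 0 higher, and limma voom called 15 lower and 0 higher. LYK4 (AT2G23770), a chitin receptor component, fell 3.25-fold to 131 ± 28.4 normalized counts in libraries labelled atino80-6, against 425 ± 30.9 in wild type (SD, n = 3 each; adjusted p = 0.00011). MIK2 (AT4G08850), a receptor for plant and fungal peptides, fell 2.53-fold, the LysM gene LYM3 2.88-fold and SOBIR1, an adaptor kinase of receptor-like proteins, 2.06-fold (adjusted p at most 0.0048).

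Of 20 tested cytoplasmic kinases, oxidases and ubiquitin ligases of surface immunity 11 fell and 0 rose, with a median of -0.29; at an unadjusted p under 0.05, 13 were lower and 0 higher, and limma voom called 12 lower and 0 higher. The ubiquitin ligase genes PUB24, PUB23 and PUB22, which restrain immune signalling, fell 3.70-fold, 2.16-fold and 1.98-fold, and the kinase gene MKK1 fell 2.09-fold (adjusted p at most 0.011). Of 9 early target genes 7 fell and 1 rose (median -1.75). CYP81F2, an enzyme of indole glucosinolate modification, fell 5.13-fold to 332 ± 119 normalized counts in libraries labelled atino80-6, against 1706 ± 143 in wild type (SD, n = 3 each; adjusted p = 0.00012). The transcription factor gene WRKY53 fell 5.82-fold (adjusted p = 0.00089). WRKY30 fell 6.29-fold (log2 change -2.26, adjusted p = 0.017), with 269 normalized counts in wild type 1 against 46.9 and 75.2 in wild type 2 and 3. The log2 change of WRKY30 was -1.54 without wild type 1, and its call was lost without atino80-6 2 (adjusted p = 0.065) and with limma voom (adjusted p = 0.072). PHI-1, a phosphate-responsive gene also used as a reporter of early immunity, rose 4.11-fold (adjusted p = 2.6e-05).

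Apyrases hydrolyse ATP, the ligand of LecRK-I.9. Of 6 tested apyrase genes 3 fell and 1 rose, with a median of -0.26. APY7 fell 1.39-fold, APY1 1.31-fold and APY2 1.21-fold, while APY4 rose 1.38-fold (adjusted p at most 0.013). The call of APY1 was lost without wild type 3 and that of APY2 without wild type 2 (adjusted p = 0.052 for each). Lectins of the same fold without a kinase moved both ways, 2 of 8 tested down and 2 up (25% each, median -0.16). Over all tested genes 16.6% fell and 17.7% rose. AT1G53070 rose 4.48-fold and AT1G53080 2.25-fold (adjusted p = 0.00021 and 0.011), and AT3G16530 fell 2.34-fold (adjusted p = 0.017). Leaving out any single library other than wild type 2 or atino80-6 3 ended the call of AT3G16530 (adjusted p at most 0.066). AT3G54080 fell 1.20-fold (adjusted p = 0.049), a call that was lost without any single library except wild type 1.

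**Figure D5:**
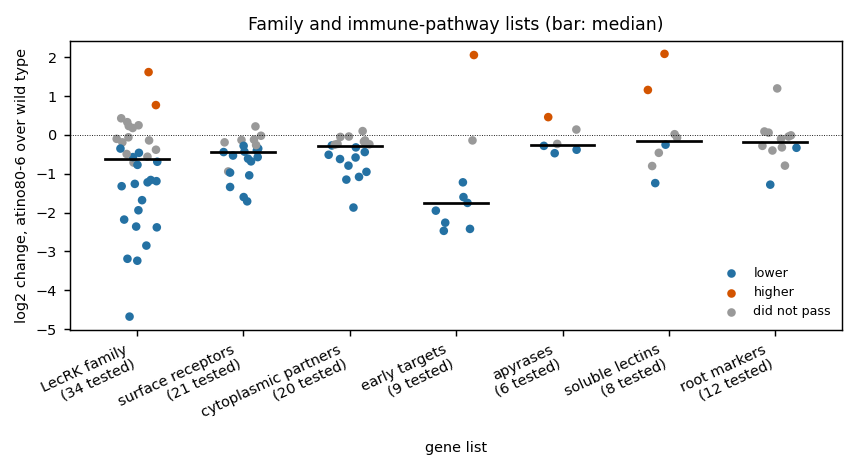
Log2 change of each tested gene (points, coloured by limma call) in the LecRK family and in 6 lists, with the median as a bar. The early target list has the lowest median (-1.75), and the root markers have a median of -0.19.

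Other receptor kinase families, taken by product name from the annotation, are given for scale. The shares over all tested genes were 16.6% down and 17.7% up. The difference between families was not tested. Of the cysteine-rich receptor kinases 16 of 23 tested fell and 2 rose, with a median log2 change of -1.13. Of the S-locus lectin kinases, whose lectin domain is of another fold, 14 of 24 fell and 2 rose (median -0.47). Of the leucine-rich repeat kinases 62 of 149 fell and 17 rose (median -0.24).

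Markers of organs and cell types were read in the same libraries, and their part in the LecRK results was not tested. Among all tested genes 16.6% fell and 17.7% rose. Of tested markers, 16.7% of root fell, 16.7% of vascular rose and 20% of guard cell and epidermis rose, near those shares. Of tested seed storage genes 33.3% rose. Root markers summed to between 212 and 223 FPKM in the libraries labelled atino80-6 and between 178 and 281 in wild type, and 2 of 12 tested fell, PRP3 (log2 change -1.28, adjusted p = 0.035) and SCR (-0.33, adjusted p = 0.0088). PRP3 lost its call without wild type 3 (log2 change -0.86), atino80-6 2 or atino80-6 3. The root genes IRT1 and NRT2.1 were near 0 in each group, at means of at most 6.77 normalized counts. Vascular markers summed to between 80.0 and 85.6 FPKM in the libraries labelled atino80-6 and between 59.9 and 87.2 in wild type, and 1 of 6 rose, SUC2 (log2 change 0.64). Guard cell and epidermis markers summed to between 52.0 and 55.2 FPKM in the libraries labelled atino80-6 and between 46.5 and 49.6 in wild type, without overlap. No test is given for this sum, and 24.1% of all tested genes also lay wholly above wild type. Of the guard cell and epidermis markers 1 of 5 rose, FAMA (log2 change 0.47, adjusted p = 0.047), a call lost without any single library except atino80-6 3. Seed storage genes varied widely, with sums of 1027, 1508 and 168 FPKM in the libraries labelled atino80-6 and 449.7, 138 and 501 in wild type. Of 6 seed storage genes 2 rose, SESA1 (log2 change 3.97, and 4.62 without atino80-6 3 or 3.37 without wild type 3) and OLEO2 (1.71). Only leaving out wild type 1 or atino80-6 3, among single libraries, kept the call of OLEO2, with log2 changes of 1.92 and 2.36. None of the 32 markers was at 0 in all 6 libraries.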

How the data were processed

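The labels' protocols name TRIzol extraction, DNase treatment and a TruSeq RNA kit. Tools named in the submitters' processing notes are HISAT2, featureCounts, DESeq2, cutadapt, SAMtools, FastQC and deepTools, with the TAIR10 build; versions and annotation are not given in the sources used here. The authors deposited FPKM values scaled between libraries and, per the file headers, a comparison table with the mean signal, the log2 fold change and its error, a score (change over error), p-values and adjusted p-values. Each FPKM was multiplied by the ratio of mean signal to mean FPKM for its gene to recover normalized counts, where the design had assumed them as deposited. All 146922 values came out as whole reads, to within 0.01.

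Genes averaging 10 or more normalized counts were fitted as log2(normalized count + 1) on genotype with limma 3.58.1 in R 4.3.3. The fit used trended empirical Bayes, a two-sided test and Benjamini-Hochberg adjustment over 20222 genes at 0.05. It was also run on simulated reads, with the same spread setting for every gene and few changed genes, unlike these data. That run does not show how the fit performs here. Folds are ratios of group means of normalized counts, and a log2 change is given with its standard error. In a library, 3 reads correspond to 2.62 to 3.5 normalized counts, and intervals cover counting error only. Count models were not run on FPKM; limma voom on the recovered reads was an alternative, beside pseudocounts of 0.5 and 5, other filters and scalings, FPKM as deposited, robust empirical Bayes, a replicate block and left-out libraries.

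Gene names and neighbours come from RefSeq (TAIR10.1), which matched 24255 genes (99.1%). Gene order for the clusters and neighbours was taken from its start positions. Since its build name differs, no coordinates are printed, promoters were not used and the planned motif search was not run. The members and lists were chosen with earlier results of these data known. The rule for naming took every member, with all 6 values where it passed the test, INO80, LecRK-S.6, and up to 4 called genes with the largest change per list. Python 3.11.15 made the tables and figures, with pandas 2.3.3, scipy 1.17.1, numpy 2.4.6 and matplotlib 3.10.9.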

Additional observations from a re-analysis of the deposited data

How the results depend on the processing

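Across 18 alternative fits, 18 of the 21 called members kept their call and direction in every fit that tested them, 3 lost it somewhere (LecRK-S.2, LecRK-I.4 and LecRK-I.8) and 0 reversed. The members that fell numbered 17 to 20 and those that rose 1 to 3, against 19 and 2. The members that rose numbered 1 with a mean of at least 50, 1 under the replicate block, and 1 to 2 when single libraries were left out. With a mean of at least 50, LecRK-S.7 (mean 48.7 normalized counts) was under the filter and not tested. LecRK-I.4 under the replicate block had adjusted p = 0.057 and LecRK-S.2 0.053 (0.053 with FPKM as deposited). No pairing by repeat number was seen. The deviations of equal numbers correlated at 0.0271, -0.186 and -0.0973, and those of unequal numbers at -0.148 to 0.248. With 3 libraries per group this check cannot exclude pairing. Under the replicate block 3158 genes rose and 2919 fell, against 3572 and 3351. Of the uncalled members 2 changed sign: LecRK-I.5 to -0.06 without wild type 1 and atino80-6 3, and LecRK-I.10 to 0.01 without wild type 3, 0.04 without atino80-6 3 and 0.10 without both wild type 1 and atino80-6 3 (range -0.29 to 0.04 with single libraries left out). Equal library totals moved the median of all genes by -0.043, within 0.1.

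Among the lists, without wild type 1 and atino80-6 3 there was 1 surface receptor higher, 2 vascular markers lower, 2 guard cell or epidermis markers higher and 6 seed storage genes higher. Guard cell and epidermis markers that rose numbered 0 with no filter, equal library totals, quantile normalization, upper-quartile scaling, FPKM as deposited, limma voom and the replicate block. Soluble lectins that fell numbered 1 with no filter, robust empirical Bayes and the replicate block, and those that rose 1 with a mean of at least 50. Root markers that fell numbered 1 with robust empirical Bayes, and seed storage genes that rose 1 with a mean of at least 50 and with robust empirical Bayes. With single libraries left out, ranges were 0 to 1 surface receptors higher and 10 to 15 lower, 0 to 1 soluble lectins lower, 1 to 4 root markers lower, 0 to 2 vascular markers lower, 0 to 2 guard cell and epidermis markers higher and 1 to 4 seed storage genes higher. With a mean of at least 50, SESA1 (mean 41.9 normalized counts) and AT1G53080 (49.1) were under the filter and not tested. The cause of the other changes was not tested. The 10 untested members had at most 46 reads over the 6 libraries, which limits what depth can show for them.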
